A study of Mus musculus with 6 samples.

Results

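The inhibitor of growth (ING) family was followed through bulk RNA-seq of sorted blood stem and progenitor cells from wild-type (WT) mice and from mice without ING4. Its members were taken by name, Ing1, Ing2, Ing3, Ing4 and Ing5, and located in the count files through the GENCODE mouse annotation of GRCm38. They are 5 of the 49315 genes counted, and all 5 had enough counts to be tested. The study compared ING4-/- with WT to learn what ING4 does in these cells, and for the family the comparison asks how much Ing4 signal was left in each population and whether other members were higher when Ing4 was absent.

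There were 6 libraries, 1 for each of 3 populations and both genotypes. Long-term hematopoietic stem cells (LT-HSCs; lineage-negative Sca1+ cKit+ CD48- CD34- CD150+), short-term hematopoietic stem cells (ST-HSCs; the same but CD34+) and multipotent progenitors (MPPs; lineage-negative Sca1+ cKit+ CD48- CD34+ CD150-) were sorted from lineage-depleted bone marrow pooled from 8 to 10 mice per genotype. The WT control mice of the study were C57BL/6 young adults. The ING4-/- mice are an ING4-deficient line from a colony provided by another laboratory and kept on site, and no allele structure or background strain, and no age of those used for RNA-seq, was given in the sources used here. No population was sequenced more than once in a genotype, so the 3 populations stood in for replicates. Where 3 values are listed for a genotype, they are in the order LT-HSC, ST-HSC, MPP. Each p-value for genotype therefore sets the difference between genotypes against the spread between populations. The 3 libraries of a genotype may come from the same pooled mice, so this spread need not hold that between mice or pools.

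ING proteins end in a PHD finger, a small zinc-binding domain that reads methylated lysine 4 on histone H3, the mark of active promoters. Each member brings this reader to an enzyme complex that sets or removes histone acetyl groups. ING1 and ING2 belong to SIN3-HDAC deacetylase complexes, ING3 to the NuA4/TIP60 acetyltransferase complex, ING4 to HBO1 complexes, and ING5 to HBO1 and MOZ/MORF complexes.

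Total counts were 7839326 to 9363442 in WT and 35596876 to 39192588 in ING4-/-. The WT libraries carried a background over the genome that the ING4-/- libraries did not. Over 1426 olfactory and vomeronasal receptor genes, which belong to sensory neurons, WT libraries had 18.3 to 23.0 counts per kb of exon and ING4-/- libraries at most 0.0861. The sort markers followed the gates, with Slamf1 (CD150) highest in LT-HSCs and Cd34 highest in MPPs in both genotypes, and Kit at 436 to 865 CPM (counts scaled to the library total) in the 6 libraries. Cd48, which the sort gated out, was at 0 counts in ING4-/- LT-HSCs and reached 109.7 CPM in ING4-/- MPPs. The B cell markers Cd79a, Ebf1 and Pax5 were at 0 in every ING4-/- library, while Cd79b was at 55.9 to 98.6 CPM there and at 30.3 to 34.6 CPM in WT. T and NK cell markers summed to 67.3 to 143.9 CPM in WT and 23.7 to 223.3 in ING4-/-, where Cd3e, Cd3g and Ncr1 were at 0 in every library, and megakaryocyte markers to 156.2 to 342.4 and 201.3 to 800.6. Neutrophil and monocyte markers summed to 402 to 588 CPM in WT and 821 to 920 in ING4-/-, erythroid markers to 20.8 to 38.9 and 76.4 to 154.1, and stromal and endothelial markers to 125.9 to 143.5 and 30.7 to 64.6. The sums of those last 3 lists did not overlap between genotypes, and their part in the ING results was not tested. Lyz2 made up most of the neutrophil and monocyte sums, with 351 to 432 CPM in WT and 659 to 766 in ING4-/-. Other members went the other way. Ly6g and Csf1r, and Alas2 of the erythroid list, had 15 to 92 counts in WT and 0 in every ING4-/- library. In bulk RNA, fewer cells of a type and less RNA per cell cannot be told apart.

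Ing4, the gene targeted in the mutant mice, is on chromosome 6 from 125039760 to 125049265 on the plus strand (ENSMUSG00000030330). The WT libraries had 247, 162 and 247 counts. The ING4-/- libraries had 0, 24 and 76, although each was sequenced more than any WT library. Every ING4-/- library was below every WT library, and the 3 mutant populations differed beyond counting error. Their 95% exact Poisson intervals were 0 to 3.69 counts in LT-HSCs, 15.4 to 35.7 in ST-HSCs and 59.9 to 95.1 in MPPs. Intervals here cover counting error only. Gaps of this kind were common in the mutant libraries, where 16.6% of the protein-coding genes with at least 200 counts in some library had fewer than 10 in another. The share was 0.0906% in WT, where the background alone adds counts to most genes.

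The Ing4 counts do not measure the mature coding message. A second annotated gene, Gm44597, a processed transcript with no protein product (ENSMUSG00000108037), starts inside Ing4 on the same strand and reuses its exons. All 1629 exonic bases of the reference coding transcript, Ing4-201, are shared with it, as are 744 of the 747 coding bases. Reads on such shared bases were in effect not counted in these files. The 133 genes whose whole exonic length is shared with a gene on the same strand had 0.102 to 0.272 counts per kb in the WT libraries, against 66.7 to 79.3 for 32277 genes that share none. Strand did not rescue a read, since 203 genes that share all of their exonic bases with a gene on the opposite strand had 0 counts in every library. The Ing4 counts therefore rest on 3465 bases that Gm44597 does not hold, all of them outside Ing4-201, in retained introns and other parts of longer isoforms. The longest stretch, 2878 bases, is the intron after the second exon, kept in isoform Ing4-203. The 2 sequences here show that border from chr6:125043986 in GRCm38, plus strand, with exon in capitals and retained intron in lower case, and then the same exon joined to the next one as in the spliced message, which Gm44597 also holds in full.
Ing4 exon 2 into its intron: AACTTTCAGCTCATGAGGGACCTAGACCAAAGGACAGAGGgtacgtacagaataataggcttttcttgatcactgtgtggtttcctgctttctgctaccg
Ing4 exon 2 joined to exon 3: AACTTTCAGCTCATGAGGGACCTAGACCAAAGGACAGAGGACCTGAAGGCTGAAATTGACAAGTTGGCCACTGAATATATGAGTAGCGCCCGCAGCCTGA
A read within the first could be counted for Ing4 only in its lower-case part, and a read within the second not at all. The deposited values thus measure intron-retaining and other unshared Ing4 RNA, and leave the level of the spliced Ing4-201 message unmeasured in both genotypes.

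**Figure D1:**
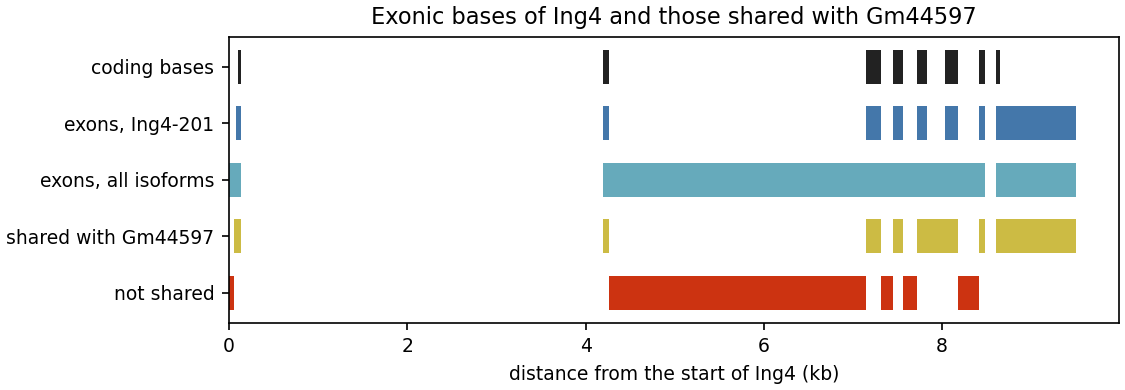
Exonic bases of Ing4 by distance from the start of the gene in kb, with coding bases, the exons of transcript Ing4-201, the exons of all isoforms, the bases shared with Gm44597 and the bases shared with no other gene on separate lines. The bases not shared sum to 3465, lie outside every exon of Ing4-201 and include 3 coding bases.

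Per kb of unshared exon, the scale used here to compare genes, Ing4 was at 9.09, 5.81 and 7.61 CPM in WT. It was at 0, 0.183 and 0.560 CPM per kb in the ING4-/- libraries. Relative to the receptor background, the WT values were 3.15, 2.04 and 3.90 times the density expected with no Ing4 RNA, and 94.1%, 88.6% and 98.2% of the receptor genes lay below Ing4. In the mutant the background allows 0.243 counts in ST-HSCs and 0.135 in MPPs over the unshared bases, against the 24 and 76 found. The residual counts were thus above that library's receptor background in ST-HSCs and MPPs, and none were found in LT-HSCs. A floor of 3 counts, set for that library at 0, is 0.0843 CPM.

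After TMM normalization, Ing4 was 271-fold higher in WT than in ING4-/- LT-HSCs, computed against the floor of 3 counts in the mutant library. The fold was 23.0 in ST-HSCs and 10.8 in MPPs, each from 1 library per genotype and with no replicate check. With the receptor background subtracted as well, the folds were 185, 11.8 and 8.06. In plain CPM, with no subtraction, they were 374, 31.7 and 13.6. Over the 3 against 3 libraries, the log2 fold change was -4.49 (SE 1.56, adjusted p = 0.0373, edgeR quasi-likelihood test with Benjamini-Hochberg adjustment over all genes tested). The call was lost with population as a replicate block, at -5.45 with an adjusted p of 0.0783, and after background subtraction over the unshared bases, at -4.68 with an adjusted p of 0.0576. It was also lost without the WT LT-HSC library (-4.42, adjusted p = 0.0762), the WT ST-HSC library (-4.71, 0.0660), the WT MPP library (-4.58, 0.0830) or the ING4-/- ST-HSC library (-4.30, 0.0787).

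Gm44597 can be counted only on its own 804 bases past or between the Ing4 exons. It had 12, 6 and 26 counts in WT, which in LT-HSCs and ST-HSCs is no more than the receptor background gives. In ING4-/- it had 2, 1 and 17 counts, and the 17 in MPPs stood against a background of 0.0314. Its log2 fold change was -2.86 (adjusted p = 0.0471, same test). The antisense gene 4930557K07Rik spans Ing4 on the other strand without sharing an exonic base, and had 15, 14 and 15 counts in WT and 0 in each ING4-/- library.

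The other 4 members shared few bases with other genes. Ing1 (ENSMUSG00000045969) is on chromosome 8 from 11555571 to 11563251, plus strand, Ing2 (ENSMUSG00000063049) on chromosome 8 from 47667178 to 47675556, minus strand, Ing3 (ENSMUSG00000029670) on chromosome 6 from 21949571 to 21976038, plus strand, and Ing5 (ENSMUSG00000026283) on chromosome 1 from 93803965 to 93822101, plus strand. Ing2 shares 46 exonic bases with the divergent noncoding gene AA386476 on the opposite strand. Ing5 contains the small nuclear RNA gene Gm22089 with no shared exonic base. Ing1 and Ing3 overlap no other gene. The members also did not share reads with each other in this annotation, since no 50-base word occurs in the transcripts of 2 members. The closest pair by coding sequence was Ing4 and Ing5, with 76.2% identity over 703 aligned bases and a longest common run of 29 bases. The ends of their coding sequences, which encode the PHD finger, are shown because this domain marks the family, with bases that differ or have no partner in capitals (GENCODE transcripts Ing4-201 and Ing5-201).
Ing4 end of coding sequence: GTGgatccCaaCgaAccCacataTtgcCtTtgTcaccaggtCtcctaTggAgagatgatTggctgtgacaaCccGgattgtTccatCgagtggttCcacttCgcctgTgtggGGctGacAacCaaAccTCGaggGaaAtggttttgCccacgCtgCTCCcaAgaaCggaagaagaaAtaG
Ing5 end of coding sequence: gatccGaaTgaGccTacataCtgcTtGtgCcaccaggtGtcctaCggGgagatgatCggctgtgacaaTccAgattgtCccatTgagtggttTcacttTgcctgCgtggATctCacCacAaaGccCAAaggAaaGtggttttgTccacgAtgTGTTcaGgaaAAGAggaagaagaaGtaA
Of 177 paired bases in these ends, 137 (77.4%) were identical, and the differences are scattered through the whole stretch. The other pairs of members had 67.0% to 73.2% identity over their coding sequences.

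Levels per kb put Ing5 at the top in WT LT-HSCs and MPPs and Ing1 at the top in every ING4-/- library. The Ing4 levels come from intron-retaining and other unshared RNA alone in both genotypes. The place of Ing4 in the orders below is therefore not that of its spliced message, which was not measured. Over the 3 WT libraries, Ing5 had 12.15 ± 5.71 CPM per kb (SD, n = 3), Ing1 7.83 ± 1.17, Ing4 7.505 ± 1.64, Ing3 6.96 ± 0.241 and Ing2 6.22 ± 1.41. In that order no member differed from the next by more than the larger of their SDs. In ING4-/-, Ing1 had 14.4 ± 4.99 CPM per kb (SD, n = 3), Ing5 7.11 ± 2.84, Ing3 5.24 ± 3.63, Ing2 3.96 ± 1.78 and Ing4 0.248 ± 0.285. There, Ing1 stood above Ing5 and Ing2 above Ing4 by more than those SDs, while Ing5, Ing3 and Ing2 did not stand apart. Within a single library the orders changed with the population, and WT ST-HSCs had Ing1 first and Ing5 last.

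**Figure D2:**
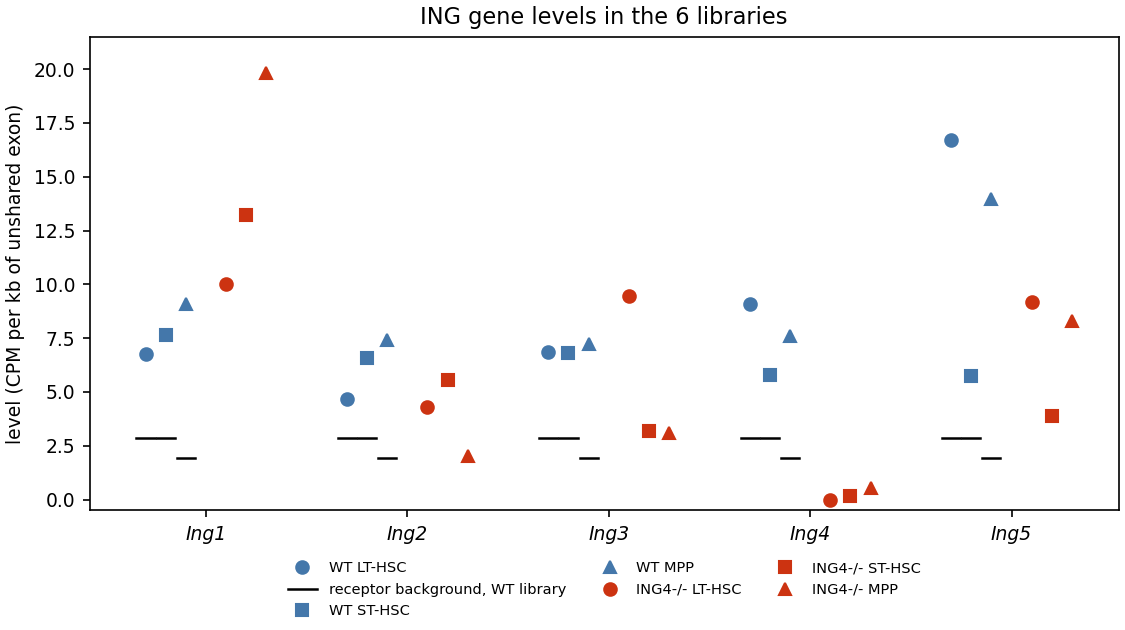
Level of each ING gene in CPM per kb of unshared exon in the 6 libraries, WT in blue and ING4-/- in red, with a circle for LT-HSC, a square for ST-HSC and a triangle for MPP, and the receptor background of each WT library as a black line. The 3 red points of Ing1 lie above its blue points, those of Ing4 lie at or near 0, and the colours overlap for Ing2, Ing3 and Ing5.

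Of the 5 members, 1 was called higher in ING4-/- (Ing1) and 1 lower (Ing4), where a call needs an adjusted p under 0.05 together with a log2 fold change past 1 in either direction. Over all 31001 genes tested, 64.6% were called, with 7.98% of the tested genes higher and 56.7% lower, so a lower call was common in these libraries. Among 9673 well-counted genes, those that reached 10 counts in each of the 6 libraries, 2346 were higher and 632 lower, with a median log2 fold change of 0.52. Against these well-counted genes Ing1 lay at percentile 80.1, Ing3 at 31.5, Ing2 at 25.1 and Ing5 at 22.6. Ing4 lay at 0.196, but it is not among them, since that filter leaves out genes that fall to 0 in a library. Against all genes tested, with a median of -6.85, Ing1 lay at percentile 92.2, Ing3 at 74.4, Ing2 at 71.8, Ing5 at 70.7 and Ing4 at 53.7. Of the 4 members other than Ing4, Ing1 alone passed the test. The log2 fold changes of the other 3 were below the median of the well-counted genes.

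Ing1 encodes a reader for the SIN3-HDAC deacetylase and is the founding member of the family. It had 181, 210 and 290 counts in WT, and 1218, 1707 and 2649 in ING4-/-. In CPM per kb these were 6.77, 7.65 and 9.08 in WT and 10.0, 13.2 and 19.8 in ING4-/-. The genotypes did not overlap, and in each of them the level was lowest in LT-HSCs and highest in MPPs. The log2 ratio of ING4-/- to WT was 1.03, 1.25 and 1.45. These ratios carry the TMM factors, 1.10 to 1.22 in WT and 0.837 to 0.880 in ING4-/-, which raise a ratio above that of plain CPM. Over 3 against 3 libraries the log2 fold change was 1.29 (SE 0.38, adjusted p = 0.0202, Benjamini-Hochberg adjustment in the same edgeR quasi-likelihood test), and with population as a block 1.25 (adjusted p = 0.0393).

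The direction of Ing1 was higher under every setting run, and its call depended on scale and on single libraries. With the well-counted genes alone the log2 fold change was 0.78 (adjusted p = 0.200), and with the receptor background subtracted over unshared bases 1.06 (adjusted p = 0.111). Without the WT LT-HSC library it was 1.12 (0.0731), without WT ST-HSCs 1.22 (0.0780), without WT MPPs 1.31 (0.0506) and without ING4-/- MPPs 1.02 (0.0670), adjusted p-values in parentheses from the same test. Measured from the median of the well-counted genes, Ing1 was 0.76 higher, and this ranged from 0.47 without the ING4-/- MPP library to 1.00 without the ING4-/- LT-HSC library. In plain CPM the ratio of ING4-/- to WT was 1.48, 1.73 and 2.18, and 1.75, 1.88 and 2.17 with the background removed from both the gene and the library total.

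**Figure D3:**
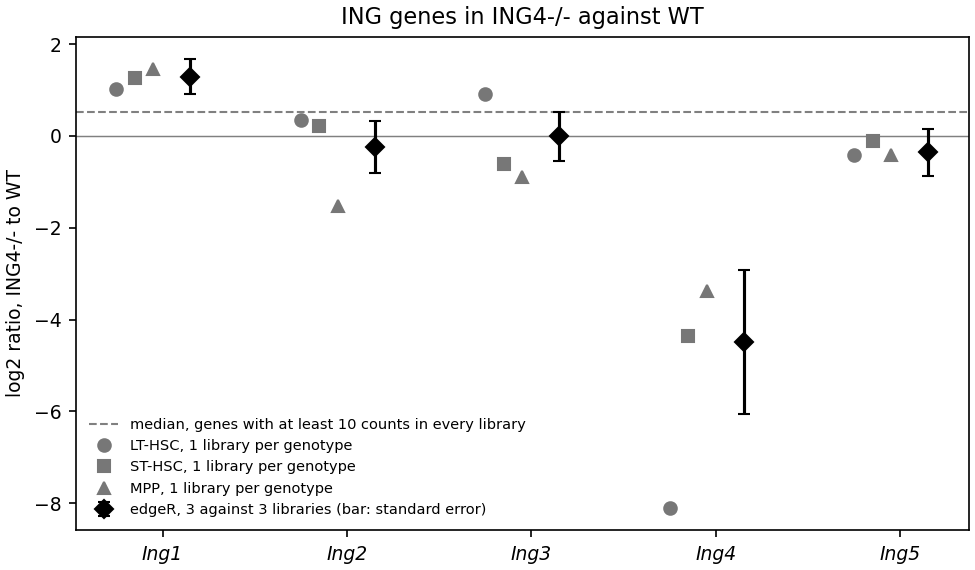
Log2 ratio of ING4-/- to WT for each ING gene within LT-HSC, ST-HSC and MPP (grey, 1 library per genotype) and the edgeR log2 fold change over 3 against 3 libraries (black, bar 1 standard error), with the median of the well-counted genes as a dashed line at 0.52. Ing1 lies above that line in each population, Ing4 lies far below it, and Ing2 and Ing3 fall on both sides of 0.

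Ing2, the second SIN3-HDAC reader, also binds a signalling phosphoinositide. It had 109, 157 and 207 counts in WT and 454, 623 and 237 in ING4-/-. In CPM per kb these were 4.68, 6.56 and 7.44 in WT and 4.29, 5.54 and 2.03 in ING4-/-. The mutant MPP library was the lowest of the 6, while WT MPPs were the highest. On this scale, which has no TMM factor, each ING4-/- library was below the WT library of its population. With TMM the log2 ratios were 0.34, 0.22 and -1.53, and the fit over all libraries gave -0.24 (SE 0.57, adjusted p = 0.739, same test), which turned to 0.37 with upper-quartile factors and to 0.10 without the ING4-/- MPP library. With the background removed from gene and total, the plain CPM ratio of ING4-/- to WT was 1.62, 1.02 and 0.290.

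Ing3 is the reader of the NuA4/TIP60 acetyltransferase. It had 258, 262 and 325 counts in WT and 1611, 581 and 579 in ING4-/-. In CPM per kb these were 6.86, 6.79 and 7.24 in WT and 9.44, 3.20 and 3.08 in ING4-/-. WT levels were nearly even over the populations, and the mutant libraries lay on both sides of them, LT-HSCs above and the other populations below. The log2 ratios were 0.92, -0.62 and -0.90 in that order, and the fit gave -0.0059 (SE 0.53, adjusted p = 0.993, same test), which turned to 0.59 with upper-quartile factors and to 0.079 with no filter on low counts. It turned to 0.26 without the ING4-/- ST-HSC library and to 0.29 without the ING4-/- MPP library.

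Ing5 is the closest relative of Ing4 and the other HBO1 reader. It had 620, 219 and 618 counts in WT and 1542, 692 and 1538 in ING4-/-. In CPM per kb these were 16.7, 5.75 and 13.96 in WT and 9.16, 3.87 and 8.30 in ING4-/-. ST-HSCs had the lowest level in both genotypes, and each ING4-/- library was below the WT library of its population. The log2 ratios were -0.41, -0.11 and -0.42, and the fit gave -0.36 (SE 0.51, adjusted p = 0.569, same test), which turned to 0.23 with upper-quartile factors. After removal of a trend on exonic length, Ing5 was called lower at -1.85 (adjusted p = 0.0153), as was Ing3 at -1.51 (adjusted p = 0.0405). With the background removed from gene and total, the plain CPM ratio was 0.448, 0.907 and 0.540, below 1 in each population.

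Summed over the 4 members other than Ing4, the family level was 35.03, 26.75 and 37.71 CPM per kb in WT. In ING4-/- the sums were 32.91, 25.85 and 33.22, lower than WT in each population on this plain CPM scale. The TMM factors were not applied to these sums, and they would put ING4-/- above WT in each population. With the background removed from each gene alone, the WT sums were 23.5, 15.3 and 29.9, below the 32.9, 25.8 and 33.2 of ING4-/-. With the background removed from each gene and from the library totals, the WT sums were 34.7, 22.5 and 38.3 against 32.9, 25.8 and 33.2. WT was then higher in LT-HSCs and MPPs, and ING4-/- was higher in ST-HSCs. The sums were not tested.

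Differences between populations were tested with genotype as a covariate. In the edgeR quasi-likelihood test, 0 of 31001 genes had an adjusted p under 0.05 for population (0% called, with 425 at an unadjusted p under 0.05), and a DESeq2 likelihood ratio test called 4. No ING gene was called by either. The nearest was Ing5, at an unadjusted p of 0.0628, with ST-HSCs lower than LT-HSCs by a log2 difference of -1.32 and MPPs at -0.11. Ing1 had a log2 difference of 0.79 between MPPs and LT-HSCs (unadjusted p = 0.332). The unadjusted p was 0.868 for Ing2, 0.536 for Ing3 and 0.681 for Ing4.

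The genes whose products sit with ING proteins in their complexes were taken from lists of known subunits. Of 42 partners, all tested, 10 were higher and 2 lower in ING4-/-, with a median log2 fold change of 0.094, against 7.98% higher, 56.7% lower and a median of -6.85 over all genes tested. All called partners were among the 36 that were well counted, and over all well-counted genes 24.3% were higher and 6.53% lower, so the partners' shares, 23.8% and 4.76% of the 42, were near those. The median of the 36 was 0.21, against 0.52 for all well-counted genes. The counts depended on scale, with 3 higher and 5 lower under DESeq2 size factors and 16 higher and 1 lower under upper-quartile factors, and with 0 higher after background subtraction. With population as a replicate block, 9 were higher and 3 lower.

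The HBO1 and MOZ/MORF list, the partners of ING4 and ING5, had none of 10 genes called by edgeR (1 at an unadjusted p under 0.05), and its median log2 fold change was -0.37. Over all genes tested, 7.98% were higher and 56.7% lower. Of the 10, 6 were well counted, with a median of -0.19. Over all well-counted genes 24.3% were higher and 6.53% lower, with a median of 0.52. In 4 of the 10 genes some ING4-/- library had fewer than 10 counts. With population as a replicate block 1 gene of this list, Kat6b, the MORF acetyltransferase, was called lower at -6.36 (adjusted p = 0.0489), with 238, 393 and 563 counts in WT and 2, 519 and 9 in ING4-/-. Kat7, the HBO1 acetyltransferase itself, had 1274, 1252 and 1723 counts in WT and 1899, 4852 and 5522 in ING4-/-, for a log2 fold change of -0.22 (adjusted p = 0.650). Kat6a, the MOZ acetyltransferase, had 315, 387 and 648 counts in WT and 1266, 1209 and 1508 in ING4-/-, for -0.17 (adjusted p = 0.697). Neither enzyme passed the edgeR test, and Kat7 had its lowest ratio, -1.14, in LT-HSCs.

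The SIN3-HDAC list, the partners of ING1 and ING2, had 5 of 16 genes called higher and none lower, with a median of 0.84. The share of higher genes over all well-counted genes was 24.3%, and 14 of the 16 were well counted. The highest was Sap30, a SIN3-associated subunit, with 70, 92 and 217 counts in WT and 1523, 1624 and 2573 in ING4-/- and a log2 fold change of 2.19 (SE 0.51, adjusted p = 0.00651). Hdac1, a catalytic subunit, was at 1.09 (SE 0.19, adjusted p = 0.00152), and the lowest of those called was the scaffold Sin3b at 1.03. Hdac2 was at 1.06 (adjusted p = 0.0696) and the scaffold Sin3a at -1.06 (adjusted p = 0.174), and neither was called. The remaining called genes were the histone-binding Rbbp4 (1.45) and Rbbp7 (1.13), which also serve in other chromatin complexes.

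The NuA4/TIP60 list, the partners of ING3, had 5 of 17 genes higher (29.4%) and 2 lower (11.8%), with a median of 0.24. All 17 were well counted, and over all well-counted genes 24.3% were higher and 6.53% lower, with a median of 0.52. Yeats4, a reader of acylated histones, was highest at 1.62 (adjusted p = 0.000657), with 423, 355 and 409 counts in WT and 4262, 4002 and 3937 in ING4-/-. Ep400, the large ATPase subunit, was lowest at -1.88 (SE 0.31, adjusted p = 0.00126), with 1076, 931 and 1011 counts in WT and 1155, 898 and 669 in ING4-/-. The acetyltransferase Kat5 was at 0.19 (adjusted p = 0.769) and the scaffold Trrap at -1.36 (adjusted p = 0.0505). With population as a replicate block, Trrap was called lower at -1.49 (adjusted p = 0.0369), Mbtd1, the other lower gene, lost its call (-1.01, adjusted p = 0.0569), and the higher gene Morf4l2 fell under the fold limit at 0.99. Adjusted p-values for partners are from the edgeR test over all genes.

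**Figure D4:**
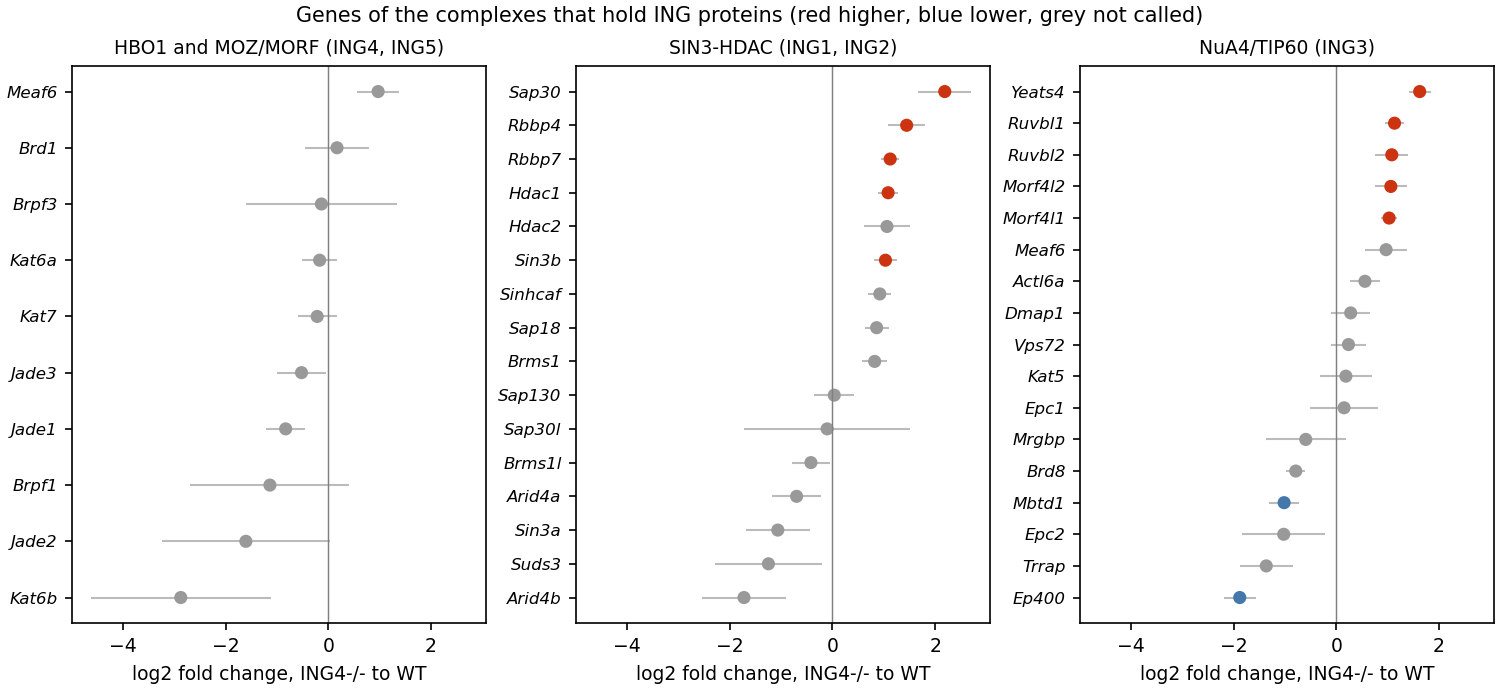
Log2 fold change of ING4-/- to WT (edgeR, bars 1 standard error) for the partner genes of each ING complex, red where called higher, blue where called lower and grey where not called. Red points stand in the SIN3-HDAC and NuA4/TIP60 lists, and the HBO1 and MOZ/MORF list is grey throughout.

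Genes around Ing4 were read to see whether the loss of counts extended past it. Within 250 kb on either side, 42 genes are annotated and 32 were tested, of which 4 were higher and 10 lower, against 7.98% and 56.7% of all genes tested. Among the 17 that were well counted, the same 4 were higher and none lower, or 23.5% and 0%, against 24.3% and 6.53% of all well-counted genes. The nearest genes on each side that do not overlap Ing4 were not called. Zfp384, a zinc finger gene at -1890 bases from Ing4, had 410, 379 and 482 counts in WT and 1800, 1018 and 1028 in ING4-/- (log2 fold change -0.13, adjusted p = 0.777). Acrbp, a gene of the sperm acrosome 424 bases past it, had 188, 66 and 58 counts in WT and 216, 215 and 409 in ING4-/- (-0.34, adjusted p = 0.695).

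Apart from Gm44597 and 4930557K07Rik, which overlap Ing4 and were called lower, the nearest called genes lay further out. On the side of lower coordinates these were Cops7a, a subunit of the COP9 signalosome, at 1.18 (adjusted p = 0.00305), the antisense gene A230083G16Rik, at 14, 25 and 67 counts in WT and 0 in each ING4-/- library, and the prolyl hydroxylase gene P3h3, at -4.30 (adjusted p = 0.00783). On the other side they were the glycolytic gene Gapdh at 1.50 (adjusted p = 0.000657), the small RNA gene Scarna10, at 10, 4 and 10 counts in WT and 0 in each ING4-/- library, and the mitochondrial ribosomal gene Mrpl51 at 1.44 (adjusted p = 0.00293). The 3 lower genes had at most 89 counts in any WT library. The higher genes had at least 366 counts in each library.

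**Figure D5:**
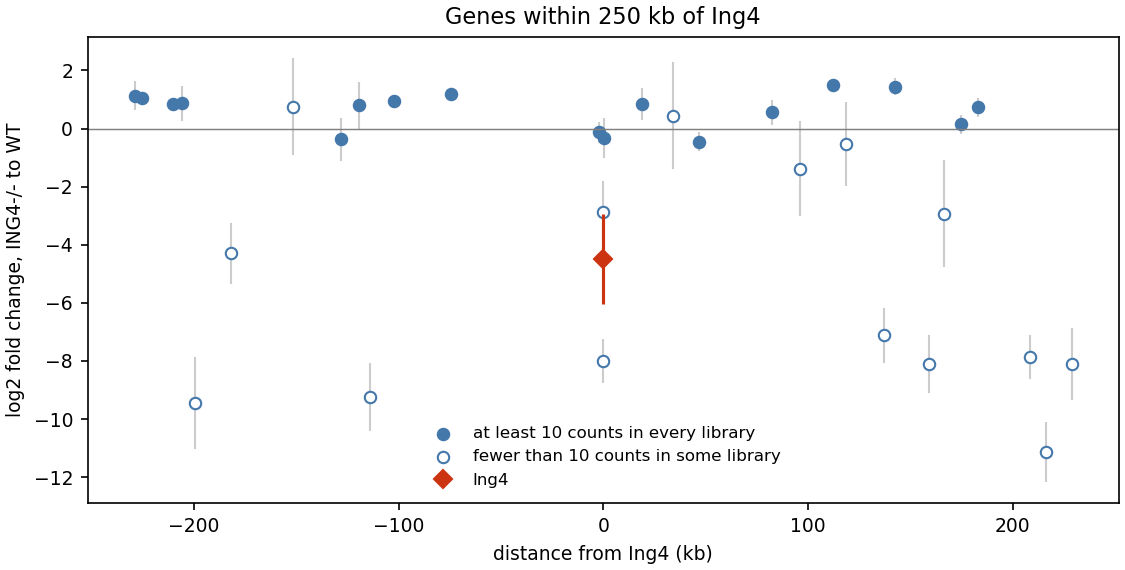
Log2 fold change of ING4-/- to WT (edgeR, bars 1 standard error) for tested genes within 250 kb of Ing4, by distance from Ing4 in kb, filled where a gene was well counted (10 counts or more in each library). Filled points lie between -0.45 and 1.50, and called lower values belong to open points and to Ing4.

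For each member, the protein-coding genes with the most similar profile were found by Pearson's r of TMM-normalized log2 CPM over the 6 libraries, among 18543 genes, as a description. Ing1 was closest to the RNA-binding genes Puf60 and Chtop (r = 0.998 for both, 233 genes above 0.95). Ing2 was closest to Cuedc1 (0.982) and Lrp1 (0.975), which, like Ing2, had their lowest value in ING4-/- MPPs. Ing3 was closest to Adcy4 and Mettl7b (0.992 for both), whose ING4-/- counts were 2190, 1 and 0 and 442, 0 and 0, high in LT-HSCs. Ing4 was closest to Auts2 (0.999), with 451, 392 and 456 counts in WT and 1, 32 and 129 in ING4-/-, and to Trim6 (0.998), with 71, 295 and 534 in ING4-/-. Ing5 was closest to Glyr1 (0.981) and Nisch (0.974), both lowest in ST-HSCs of each genotype. With 6 libraries that fall into 2 genotypes and share their depth and background, many genes reach such values, 260 above 0.95 in the case of Ing4.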

How the data were processed

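Bulk RNA-seq of 6 libraries was analysed. The authors deposited raw counts of reads per gene, without normalization, made by the sequencing company (Illumina HiSeq). The submitters' processing notes name the mm10 build, and the aligner, counting program and strand setting are not given in the sources used here. Of 49315 identifiers, 49056 were found in GENCODE release M21 (GRCm38), which gave symbols, positions and sequences. The symbol Fam60a was read as Sinhcaf.

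Genes were tested in edgeR 4.0.16 (R 4.3.3) after TMM scaling and filterByExpr on the genotypes, by the quasi-likelihood test of genotype as the only term, with Benjamini-Hochberg adjustment over 31001 genes. A standard error is the size of the log2 fold change over the root of its F value. Log2 ratios within a population used a prior count of 2. CPM divides by total counts and, per kb, by exonic bases that no other gene shares. The receptor background is the summed counts of 1426 receptor genes over their unshared bases. DESeq2 1.42.0, other scalings and filters, replicate block, background subtraction and removal of each library were alternatives, and subtraction over unshared bases and correction of library totals for background were added after seeing the data. The fits were also run on simulated counts that held neither the WT background nor the uneven ING4-/- counts, so that check does not cover these features. The result for 1 of the cell type markers is not reported here.

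WT and ING4-/- libraries of a population strayed the same way from the means of their genotypes (r = 0.143, 0.110 and 0.121 over 9673 genes), so populations pair the libraries. No pair of libraries within a genotype was a duplicate. Reads were counted without molecular identifiers and are not independent molecules. The members, lists and tests were chosen with earlier results of these data known. Named genes were the members, 7 catalytic or scaffold partners, the called partner with the highest and lowest log2 fold change in each list, up to 3 nearest called genes on each side of Ing4, genes overlapping a member, and the 2 most similar genes per member. Zfp384, Acrbp, Rbbp4, Rbbp7, Kat6b, Morf4l2 and the genes with few counts in the closing section were named after their values were seen.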

Additional observations from a re-analysis of the deposited data

Results flagged for a closer look

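The log2 ratio of ING4-/- to WT for Ing2 was 0.34 in LT-HSCs and -1.53 in MPPs, opposite directions in these populations. For Ing3 it was 0.92 in LT-HSCs and -0.90 in MPPs. Each ratio rests on 1 library per genotype, and the difference between the populations was not tested. With the receptor background subtracted over unshared bases, each of the 4 kept its direction. In plain CPM, without the TMM factors, the Ing2 ratio of ING4-/- to WT was 0.917 in LT-HSCs and 0.273 in MPPs, below 1 in both. That of Ing3 was 1.38 and 0.426.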

How the results depend on the processing

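Across the alternatives, the direction of Ing1 (higher) and Ing4 (lower) held in every setting that gave a value, and that of Ing2, Ing3 and Ing5 did not. The median log2 fold change of the well-counted genes moved from 0.52 by -0.36 with DESeq2 size factors, by 0.59 with upper-quartile factors by -0.46 with TMM factors from well-counted genes and by -1.14 with the length trend removed. Ing1 lost its call with DESeq2 size factors (0.93), well-counted TMM factors (0.83), DESeq2 itself (0.93, at an adjusted p of 0.0319 but under the fold limit), genes of at least 10 counts in every library (0.78), protein-coding genes only (0.94), removal of the length trend (0.22), and background subtraction over exonic (1.04) or unshared length (1.06). Ing4 lost its call with upper-quartile factors (-3.92, adjusted p = 0.0544) and with background subtraction over exonic (-4.24) or unshared length (-4.68), and could not be tested among genes of at least 10 counts, since 1 library is at 0. Upper-quartile factors turned Ing2 to 0.37, Ing3 to 0.59 and Ing5 to 0.23, and no filter turned Ing3 to 0.079. Removal of the length trend brought calls of Ing3 (-1.51) and Ing5 (-1.85). With each library left out in turn, Ing1 ranged from 1.02 to 1.53, Ing2 from -0.57 to 0.10, Ing3 from -0.69 to 0.29, Ing4 from -5.84 to -3.88 and Ing5 from -0.73 to -0.05. No ING gene was called for population in any setting.

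With population as a replicate block, Ing4 lost its call (-5.45, adjusted p = 0.0783) and no other ING gene changed sides, with 9 partners higher and 3 lower and with 1999 genes higher and 16880 lower.

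Counts of genes called higher, 2475 as reported, were 1342 with DESeq2 size factors, 4556 with upper-quartile factors, 1108 with well-counted TMM factors, 1518 with DESeq2, 803 (936 lower) with at least 10 counts, 1108 (7646 lower) and 1072 (7808 lower) with background subtracted over exonic and unshared length, 1148 (7489 lower) for protein-coding genes, and 989 without the length trend. Partners called, 10 higher and 2 lower as reported, were in the same order 3 and 5, 16 and 1, 2 and 6, 3 and 6, 2 and 5, 0 higher and 0 higher for the subtractions, 3 and 5, and 2 and 14, with 1 lower when no filter was used. Leaving out libraries gave 6 to 13 higher and 1 to 4 lower. Neighbours called higher, 4 as reported, were 2, 9, 1, 2, 0, 1, 1, 2 and 0, and those lower, 10 as reported, became 0 with at least 10 counts, 3 and 4 with the subtractions and 3 for protein-coding genes. Background subtraction over exonic and unshared length moved the Ing1 log2 ratio to 0.97 and 0.99 in ST-HSCs and to 1.08 and 1.10 in MPPs, and that of Ing5 to -0.91 and -0.90 in LT-HSCs and to -0.92 and -0.90 in MPPs. The cause was not tested for any of these changes.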

Other observations

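Counts were uneven between the 3 ING4-/- libraries for a far larger share of genes than in WT. Of 10788 protein-coding genes with at least 200 counts in some ING4-/- library, 1786 (16.6%) had fewer than 10 counts in another ING4-/- library. In WT, 9 of 9929 (0.0906%) did, and the WT background alone adds counts to most genes. Among the partners of ING4 and ING5, 4 of 10 were of this kind in ING4-/-. Brpf1 had 1, 521 and 2139 counts in LT-HSCs, ST-HSCs and MPPs, Kat6b had 2, 519 and 9, Jade2 had 0, 488 and 257, and Brpf3 had 579, 1 and 235. In the WT libraries the same 4 genes had between 72 and 770 counts. Of all 41 partners with at least 200 counts in some ING4-/- library, 5 (12.2%) were uneven in this way. Ing1, Ing2, Ing3 and Ing5 had at least 237 counts in each ING4-/- library.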
